A study of Homo sapiens with 12 samples.

Results

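The genes of sterol and fatty acid synthesis were followed through entinostat treatment of HD-MB03, a human medulloblastoma cell line of group 3 with an amplified MYC gene. The set was taken from a list of 33 gene symbols, the enzymes from acetyl-CoA to cholesterol and to long unsaturated fatty acids together with the proteins that control them, and a probe set was assigned to a member by its symbol. Of these, 30 genes had at least 1 probe set that carried no other symbol, with 66 probe sets in all, among 19775 genes and 54613 probe sets tested. The probe sets of CYP51A1 and FADS1 all carried several symbols, so no value is given for either gene, and FDFT1 was not analysed here. Cells received 1 µM entinostat, an inhibitor of class I histone deacetylases, or the solvent DMSO for 24 h or 48 h, with 3 arrays in each of the 4 groups and 12 in total. The line carries the MYC amplification in all groups and was grown in medium with serum, which itself brings lipids to the cells. RNA was measured on Human Genome U133 Plus 2.0 arrays, whose number limits the precision. MYC had a mean intensity of 11257 in DMSO at 24 h and OTX2, a marker of group 3 tumours, had 6561. Of 7 such markers, NPR3 and CRX stayed under an intensity of 150 in all groups, and the summed level of the 7 ranged from 19225 in entinostat at 24 h to 25259 in DMSO at 48 h. MYC and OTX2 make up most of this sum, and other markers of the list were lower in entinostat. IMPG2 had group means of 2880 and 3417 in DMSO and 725 and 1199 in entinostat at 24 h and 48 h, GABRA5 had 924 and 896 against 270.4 and 207, and NRL had 1076 and 2189 against 858 and 1293. Their part in the results below was not tested. Of 13 markers of astrocytes, oligodendrocytes, endothelial cells, leukocytes and fibroblasts, 12 stayed under 150 in all groups, and their sum ranged from 1037 to 1262. The exception was the astrocyte marker SLC1A3, whose group means were 241 and 337 in DMSO and 134 and 150 in entinostat at 24 h and 48 h.

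Cells make cholesterol from acetyl-CoA through mevalonate and squalene, and they make fatty acids from the same precursor. Both routes are driven by the SREBP transcription factors, made from SREBF1 and SREBF2 as precursors in the membrane of the endoplasmic reticulum. SCAP escorts the precursors to the Golgi, where proteases release the active part, while INSIG1 and INSIG2 hold SCAP back when sterols are plentiful. The brain makes its own cholesterol, since lipoproteins of the blood do not cross into it, and dividing cells need both lipids for new membranes.

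The set did not move as a block. At 24 h, 11 of the 30 measured members rose under entinostat, 6 fell and 13 did not pass the test (limma with Benjamini-Hochberg adjustment over all probe sets, threshold 0.05). Over all genes, 18.2% were called higher and 15% lower at 24 h. At 48 h, 8 members rose, 9 fell and 13 did not pass, against 17.3% of all genes called higher and 16.6% lower. As shares of the 30, the calls made 36.7% up and 20% down at the first time, and 26.7% up and 30% down at the second. Members were brighter than most genes, with 28 of 30 at a mean log2 intensity of at least 7, against 47.3% of all genes. Among the 9353 genes of that brightness, 27.1% were called up and 26.5% down at 24 h, and 25.4% and 29.9% at 48 h. Next to genes of like brightness the member shares were thus near the background at 48 h. At 24 h the share called up was above it and the share called down below it. These differences are of few genes and were not tested. The arrays of the groups did not overlap in 16 members that were higher and 7 that were lower at 24 h, where 23.1% and 23.4% of all genes did not overlap in these directions. At 48 h this held for 8 higher and 9 lower, against 21.9% and 23.3%. The median log2 fold change of the members was 0.18 at 24 h and -0.02 at 48 h, and that of all genes was -0.02 at both times. The median size of the change, without its sign, was 0.34 and 0.27 for the members and 0.14 and 0.13 for all genes. The medians and the counts without overlap were not set against genes of like brightness. They therefore do not show that the members changed more than such genes. An array reads the RNA of the whole culture, so a change in part of the cells and a smaller change in all of them cannot be told apart.

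Of the members, 8 were higher at both times, namely PMVK, SQLE, TM7SF2, HSD17B7, SCAP, STARD4, ACSS2 and ELOVL5, where 13.7% of all genes were. A further 5 were lower at both times, namely ACAT2, LSS, ACLY, FASN and FADS2, where 11.1% of all genes were. HMGCS1, SC5D and INSIG2 were called higher and ELOVL6 lower at 24 h only, and FDPS, NSDHL, EBP and SCD were called lower at 48 h only. On the probe sets used, no member was called in opposite directions at the 2 times, and 9 were called at neither. The dimmer probe set of ACACA, which is among these 9, was called lower at 24 h and higher at 48 h. The 24 h and 48 h groups of one treatment are separate arrays, so the fold changes at the 2 times share no samples. The spread was estimated from all arrays in a single fit, so the tests at the 2 times are not independent. The plot of fold changes shows each member with its interval in pathway order, and rising and falling genes stood next to each other within every enzyme route.

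**Figure D1:**
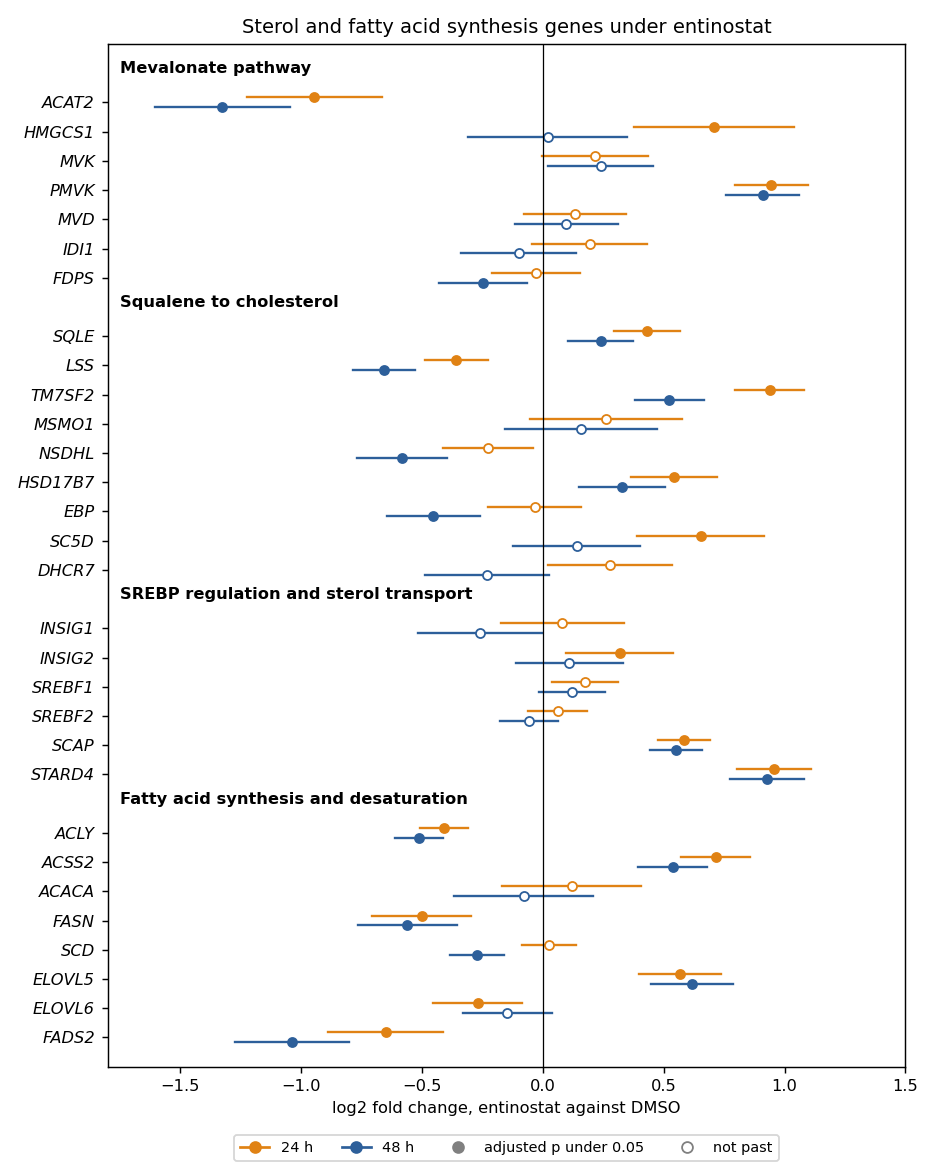
Log2 fold change of entinostat against DMSO for the 30 measured members, grouped by role, at 24 h (orange) and 48 h (blue). Points are limma estimates with 95% intervals from 3 arrays per group, filled where the adjusted p was under 0.05, and ACAT2 lies lowest at -1.33 while STARD4 lies highest at 0.95.

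The promoters of 5 members are shown because these genes stand for the patterns described below: SREBF2, which did not pass at either time, STARD4 and TM7SF2, which rose at both, LSS, which fell at both, and EBP, which fell at 48 h. Each stretch is the 200 bases before the annotated start in RefSeq (GRCh38.p14), read 5′ to 3′ on the strand of the gene. Capitals mark TCACNCCAC (a sterol response element, the letters SREBPs are known to bind), CCAAT (the box bound by NF-Y), GGGCGG (a GC box bound by Sp1) and CACGTG (an E-box), or their reverse complements. NF-Y and Sp1 are known partners of SREBPs.
SREBF2: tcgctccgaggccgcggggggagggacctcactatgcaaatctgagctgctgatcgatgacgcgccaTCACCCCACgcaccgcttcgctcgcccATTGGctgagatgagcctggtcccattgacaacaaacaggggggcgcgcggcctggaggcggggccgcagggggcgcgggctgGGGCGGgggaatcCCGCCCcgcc
STARD4: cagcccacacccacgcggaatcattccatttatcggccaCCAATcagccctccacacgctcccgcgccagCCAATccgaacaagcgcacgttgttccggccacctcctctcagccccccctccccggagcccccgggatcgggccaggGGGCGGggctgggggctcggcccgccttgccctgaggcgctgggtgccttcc
TM7SF2: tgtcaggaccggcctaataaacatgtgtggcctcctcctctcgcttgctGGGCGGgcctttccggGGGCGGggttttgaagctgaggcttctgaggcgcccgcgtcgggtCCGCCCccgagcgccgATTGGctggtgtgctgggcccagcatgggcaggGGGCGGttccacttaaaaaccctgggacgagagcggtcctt
LSS: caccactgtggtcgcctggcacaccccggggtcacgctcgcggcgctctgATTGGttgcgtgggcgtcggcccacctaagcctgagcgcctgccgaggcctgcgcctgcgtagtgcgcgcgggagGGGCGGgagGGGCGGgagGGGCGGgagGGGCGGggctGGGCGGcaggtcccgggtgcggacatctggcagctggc
EBP: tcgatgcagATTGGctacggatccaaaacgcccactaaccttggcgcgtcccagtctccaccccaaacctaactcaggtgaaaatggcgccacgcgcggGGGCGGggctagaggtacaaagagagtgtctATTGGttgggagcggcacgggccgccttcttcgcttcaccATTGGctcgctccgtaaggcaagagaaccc
The stretches lie at chr22:41832905-41833104, plus strand for SREBF2, chr5:111512536-111512735, minus strand for STARD4, chr11:65111672-65111871, plus strand for TM7SF2, chr21:46228775-46228974, minus strand for LSS and chrX:48521608-48521807, plus strand for EBP. The search ran over both strands of the window from 250 bases before to 50 bases after each start, and 29 of the 33 members had 40 such windows. The windows of some genes overlapped, such as those of ACLY, SC5D and INSIG2. A site there can count more than once in the shares of windows. TCACNCCAC was found in 1 of the 29 genes, SREBF2, at -133 to -125 from the start, and in 1.13% of all 35116 windows. TCACCCCAC, an instance of it that was also searched, matched the same bases of SREBF2 and was found in 0.43% of all windows. Only exact letters within the windows were searched. A gene without a match is therefore not shown to lack a sterol response element. Of the other motifs, none contains another. CCAAT was found in 22 of the 29 genes and in 65% of their windows, against 34.6% of all windows. GGGCGG was found in 27 genes and 87.5% of their windows, against 45% of all. CACGTG was found in 5 genes, ELOVL5, INSIG1, LSS, SC5D and SCAP, and in 15% of the member windows, against 7.26% of all. Of the 7 members higher at both times that had a window, 5 held CCAAT and 6 held GGGCGG, the 3 such members lower at both times all held both motifs, and of the 9 called at neither time 8 held CCAAT and 9 held GGGCGG. These matches are letters in a window and were not tested as binding sites.

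In the mevalonate pathway, which builds farnesyl diphosphate from acetyl-CoA, 2 of 7 members rose and 1 fell at 24 h, and 1 rose and 2 fell at 48 h. Of all genes of like brightness, 27.1% were called up and 26.5% down at 24 h, and 25.4% and 29.9% at 48 h. The counts by route are of few genes and were not tested against these shares. ACAT2, the thiolase that joins acetyl-CoA units, had intensities of 985, 831 and 968 in DMSO and 485, 465 and 493 in entinostat at 24 h. At 48 h they were 868, 763 and 749 in DMSO and 399, 258 and 305 in entinostat. Every entinostat array lay below every DMSO array at both times. The log2 fold change was -0.94 ± 0.13 (adjusted p = 0.000131) at 24 h and -1.33 ± 0.13 (adjusted p = 6.99e-06) at 48 h (estimate ± SE, limma, n = 3 per group), which left 0.399 of the DMSO level at 48 h. HMGCS1, which makes HMG-CoA in the next step, had intensities of 839, 752 and 826 in DMSO and 1555, 1011 and 1447 in entinostat at 24 h, and 829.96, 751 and 732 in DMSO and 944, 667 and 756 in entinostat at 48 h. The groups separated at 24 h, with entinostat replicate 2 nearest to DMSO, and overlapped at 48 h. Its log2 fold change was 0.71 ± 0.15 (adjusted p = 0.00368) and then 0.02 ± 0.15 (adjusted p = 0.951).

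PMVK, the phosphomevalonate kinase, had intensities of 305, 279 and 279 in DMSO and 559, 553 and 545 in entinostat at 24 h. The 48 h arrays gave 257, 306 and 260.3 in DMSO and 493, 519 and 532 in entinostat. The entinostat arrays were close to 2 times as bright as the DMSO arrays and did not overlap with them at either time. Its change was 0.94 ± 0.07 (adjusted p = 8.33e-07) at 24 h and 0.91 ± 0.07 (adjusted p = 9.83e-07) at 48 h, or 1.92-fold and 1.88-fold. The kinase before it and the decarboxylase after it did not pass: MVK had 0.22 and 0.24 (adjusted p = 0.15 and 0.107, limma), and MVD had 0.13 and 0.10 (adjusted p = 0.393 and 0.555). IDI1, the isomerase of the isoprene unit, had 0.19 and -0.10 (adjusted p = 0.245 and 0.598). FDPS, which makes farnesyl diphosphate, had -0.03 (adjusted p = 0.858) and fell at 48 h with -0.25 ± 0.08 (adjusted p = 0.0471). Of 12 refits, each without a single array, 9 lost that call, namely those without whichever of the DMSO 24 h or entinostat 48 h arrays, entinostat 24 h replicate 1, or DMSO 48 h replicate 1 or 3, with values from -0.28 to -0.18 and adjusted p from 0.0566 to 0.182.

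From squalene to cholesterol, 4 of 9 measured members rose and 1 fell at 24 h, and 3 rose and 3 fell at 48 h. For genes of like brightness the shares were 27.1% up and 26.5% down at 24 h, and 25.4% and 29.9% at 48 h. SQLE, the squalene epoxidase, was bright, at 2118 to 3425 over all arrays, and rose by 0.43 ± 0.06 (adjusted p = 0.000207) at 24 h and 0.24 ± 0.06 (adjusted p = 0.0121) at 48 h. Its 48 h call was lost without DMSO 48 h replicate 3 (0.20, adjusted p = 0.0557) and without entinostat 48 h replicate 1 (0.20, adjusted p = 0.054). LSS, which closes the rings to lanosterol in the step after SQLE, had intensities of 696, 701 and 739 in DMSO and 522, 563 and 584 in entinostat at 24 h. They were 757, 779 and 735 in DMSO and 454, 503 and 484 in entinostat at 48 h. All entinostat arrays of LSS were below all DMSO arrays at both times. The log2 fold change was -0.36 ± 0.06 (adjusted p = 0.000612) and -0.66 ± 0.06 (adjusted p = 3.94e-06), so that adjacent enzymes of the route moved in opposite directions.

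TM7SF2, a sterol reductase that acts on the product of the lanosterol demethylase, had intensities of 85.5, 80.99 and 86.1 in DMSO and 156, 173 and 156 in entinostat at 24 h. It had 75.5, 84.6 and 84.5 in DMSO and 111, 118 and 122 in entinostat at 48 h. The gene was dim, near the median of an array in DMSO, where the background left in the values narrows fold changes, and the treated arrays stood above the controls at both times. It rose by 0.94 ± 0.07 (adjusted p = 5.66e-07) and 0.52 ± 0.07 (adjusted p = 6.02e-05). NSDHL and HSD17B7, a dehydrogenase and a ketoreductase of the same route, were called in opposite directions at 48 h. NSDHL had intensities of 341, 336 and 336 in DMSO and 305, 259 and 305 in entinostat at 24 h, and 311, 318 and 269 in DMSO and 216, 182 and 201 in entinostat at 48 h. Its arrays did not overlap at either time, and the change was -0.23 ± 0.09 (adjusted p = 0.0784) at 24 h and -0.58 ± 0.09 (adjusted p = 0.000235) at 48 h. HSD17B7 had intensities of 764, 730.5 and 677 in DMSO and 1097, 1072 and 994 in entinostat at 24 h, and 847, 726 and 815 in DMSO and 1099, 916 and 980.3 in entinostat at 48 h. Its treated arrays were above the controls at both times, and it rose by 0.54 ± 0.08 (adjusted p = 0.000277) and 0.33 ± 0.08 (adjusted p = 0.00922). The only probe set of HSD17B7 is of a type whose probes can also match near-identical sequences, so that a related copy may add to its signal. MSMO1, the methylsterol oxidase of the same route, had 0.26 and 0.16 (adjusted p = 0.234 and 0.517).

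Among the last enzymes, EBP, which shifts a double bond of the sterol ring, had intensities of 1403, 1168 and 1298 in DMSO and 1284, 1184 and 1303 in entinostat at 24 h. The intensities at 48 h were 1320, 1181 and 1213 in DMSO and 869, 829 and 1026 in entinostat. The groups overlapped at 24 h and separated at 48 h. The change was -0.03 ± 0.09 (adjusted p = 0.845) and then -0.45 ± 0.09 (adjusted p = 0.00201). SC5D, the desaturase that follows, showed the opposite order in time, with 758, 587 and 623 in DMSO and 993, 1186 and 917 in entinostat at 24 h. At 48 h it had 478, 606 and 553 in DMSO and 549, 610.2 and 640.1 in entinostat. Its groups separated at 24 h and overlapped at 48 h, with 0.65 ± 0.12 (adjusted p = 0.00133) and 0.14 ± 0.12 (adjusted p = 0.477). DHCR7, the reductase at the end of one branch, did not pass with 0.28 and -0.23 (adjusted p = 0.115 and 0.197, limma). The plot of single arrays shows how far the groups of 12 members stood apart next to their spread.

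**Figure D2:**
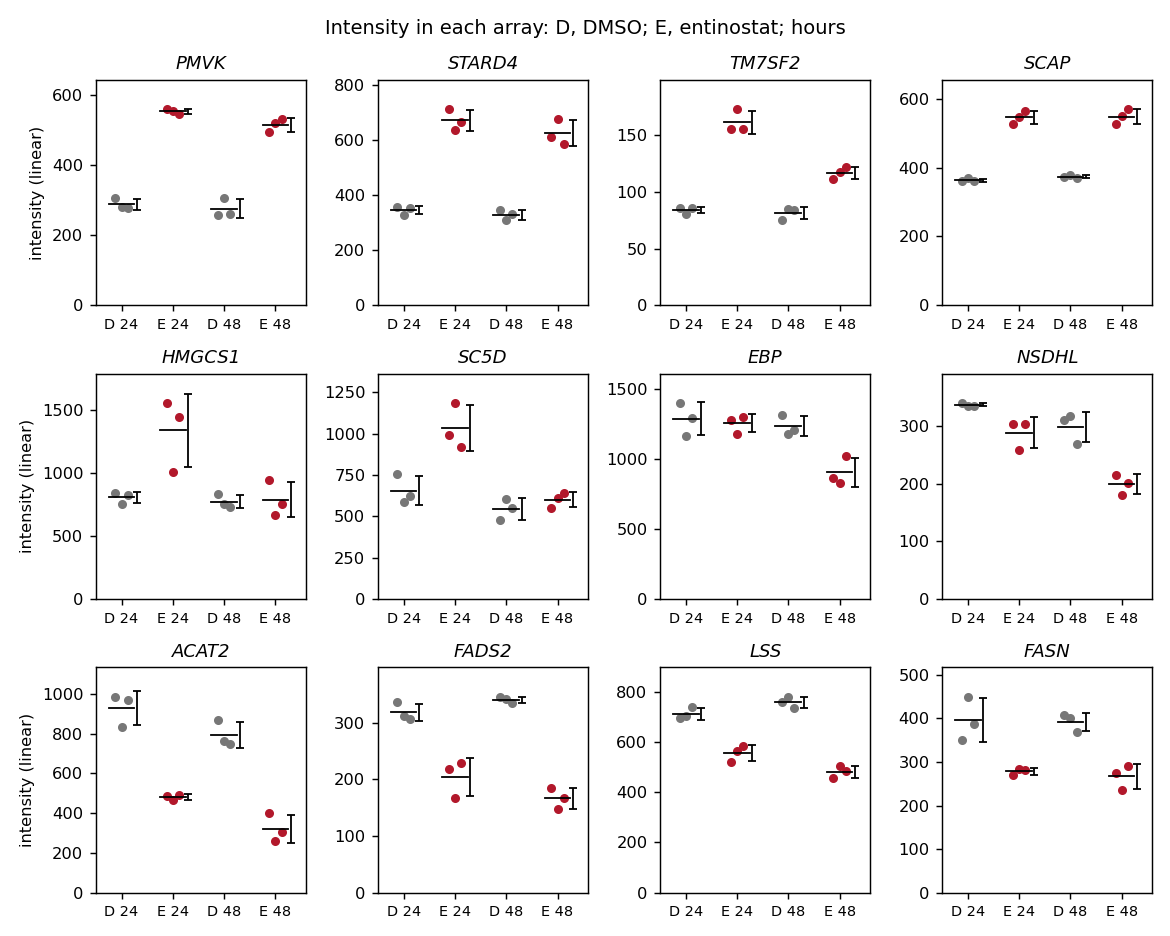
Intensity on the linear scale in each of the 12 arrays for 12 members that changed, with D for DMSO, E for entinostat and the time in hours. Points are arrays, lines are group means and bars are 1 SD (n = 3), and PMVK, STARD4, TM7SF2 and SCAP have all treated arrays above all controls while ACAT2, FADS2, LSS and FASN have all below.

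Neither gene of the SREBP transcription factors passed the test at either time. SREBF1, which makes the SREBP forms known mainly for fatty acid genes, had intensities of 132, 132 and 139.97 in DMSO and 145, 149 and 163 in entinostat at 24 h. At 48 h it had 138, 152 and 137 in DMSO and 151, 151 and 161 in entinostat. The treated arrays were above the controls at 24 h and overlapped with them at 48 h, and the change of 0.18 (adjusted p = 0.0588) and 0.12 (adjusted p = 0.202) did not pass. SREBF2, whose protein mainly drives the sterol genes, had 262, 296 and 286 in DMSO and 295, 292 and 293 in entinostat at 24 h, and 328, 329.9 and 331 in DMSO and 320.03, 303 and 329.9 in entinostat at 48 h. The groups overlapped at both times. Its change was 0.06 at 24 h with a 95% interval of -0.06 to 0.18, and -0.06 at 48 h with -0.18 to 0.07 (adjusted p = 0.502 and 0.554, limma). Its level was higher at 48 h than at 24 h in every array of either arm, by 0.23 in DMSO (adjusted p = 0.103) and 0.11 in entinostat (adjusted p = 0.292), and neither difference passed.

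SCAP, the escort of the precursors, had intensities of 361, 368 and 361 in DMSO and 526, 545 and 565 in entinostat at 24 h. It had 373, 379 and 369.8 in DMSO and 526, 548 and 569.5 in entinostat at 48 h. The treated arrays stood well above the controls at both times, and both groups were tight. SCAP rose by 0.59 ± 0.05 (adjusted p = 2.4e-06) and 0.55 ± 0.05 (adjusted p = 3.57e-06), or 1.5-fold and 1.46-fold. INSIG1, a retention protein and itself a known SREBP target, had 1129, 1161 and 1088 in DMSO and 1322, 1125 and 1135 in entinostat at 24 h. At 48 h, INSIG1 had 1070, 1360 and 1048 in DMSO and 999, 1089 and 815 in entinostat. The groups overlapped at both times, with changes of 0.08 (adjusted p = 0.698) and -0.26 (adjusted p = 0.137) and 95% intervals of -0.17 to 0.34 and -0.52 to -0.0049. INSIG2, the second retention protein, was higher at 24 h by 0.32 ± 0.10 (adjusted p = 0.0361) and had 0.11 at 48 h (adjusted p = 0.514). The INSIG2 call was lost without whichever of the 6 arrays of 24 h, with values from 0.28 to 0.34 and adjusted p from 0.0656 to 0.112.

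STARD4, a soluble carrier that moves cholesterol between membranes, had intensities of 357, 329 and 352 in DMSO and 712, 635 and 666 in entinostat at 24 h. It had 344, 308 and 332 in DMSO and 612, 677 and 586 in entinostat at 48 h. The groups were far apart at both times, and STARD4 rose by 0.95 ± 0.07 (adjusted p = 8.14e-07) and 0.93 ± 0.07 (adjusted p = 8.94e-07), or 1.94-fold and 1.9-fold. On the probe sets used, none of these 6 regulators and carriers was called lower at either time, with 3 called higher at 24 h and 2 at 48 h. Of all genes, 15% were called lower and 18.2% higher at 24 h, and 16.6% and 17.3% at 48 h. Counts of 6 genes do not set this group apart from these shares. Another probe set of INSIG1 was called lower at 48 h.

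In fatty acid synthesis and desaturation, 2 of 8 measured members rose and 4 fell at 24 h, and the counts were 2 and 4 again at 48 h. Genes of like brightness were called up in 27.1% and down in 26.5% at 24 h, and in 25.4% and 29.9% at 48 h. These counts of few genes were not tested against the shares. The enzymes that supply cytosolic acetyl-CoA moved apart. ACLY, which splits citrate, was among the brightest members, with 4398, 4530 and 4523 in DMSO and 3347, 3407 and 3386 in entinostat at 24 h. At 48 h, ACLY had 4254, 4177 and 4269 in DMSO and 3056, 2867 and 2985 in entinostat. Its treated arrays were all below the controls and both groups were tight, with changes of -0.41 ± 0.05 (adjusted p = 2.44e-05) and -0.51 ± 0.05 (adjusted p = 3.23e-06). ACSS2, which makes acetyl-CoA from acetate, had 177, 165 and 189 in DMSO and 286, 297 and 287 in entinostat at 24 h. It had 182, 179 and 205 in DMSO and 267, 278 and 274 in entinostat at 48 h. Its treated arrays were all above the controls, and ACSS2 rose by 0.72 ± 0.07 (adjusted p = 4.78e-06) and 0.54 ± 0.07 (adjusted p = 4.71e-05). ACACA, the carboxylase that makes malonyl-CoA, had 0.12 and -0.08 (adjusted p = 0.594 and 0.745). FASN, the synthase, had intensities of 351, 449 and 387 in DMSO and 269.7, 284 and 281 in entinostat at 24 h, and 407, 400.2 and 369 in DMSO and 273, 236 and 291 in entinostat at 48 h. The groups did not overlap, and FASN fell with -0.50 ± 0.09 (adjusted p = 0.00148) and -0.56 ± 0.09 (adjusted p = 0.000616).

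The desaturases and elongases were split as well. FADS2, which starts the desaturation of polyunsaturated fatty acids, had 336, 311 and 307 in DMSO and 218, 167 and 228 in entinostat at 24 h. It had 346, 341 and 334 in DMSO and 185, 149 and 166 in entinostat at 48 h. The treated arrays lay below the controls at both times, with -0.65 ± 0.11 (adjusted p = 0.000635) and -1.04 ± 0.11 (adjusted p = 1.35e-05), which left 0.488 of the DMSO level at 48 h. ELOVL5, the elongase of polyunsaturated fatty acids, had 2173, 2013 and 1975 in DMSO and 3260, 2773 and 3119 in entinostat at 24 h. At 48 h, ELOVL5 had 2184, 1874 and 1957 in DMSO and 3281, 2956 and 2986 in entinostat. It was higher in every treated array, with 0.57 ± 0.08 (adjusted p = 0.00014) and 0.62 ± 0.08 (adjusted p = 6.37e-05), so that a desaturase and an elongase of one route moved in opposite directions. SCD, which makes monounsaturated fatty acids, had 0.03 at 24 h (adjusted p = 0.787) and fell at 48 h with -0.27 ± 0.05 (adjusted p = 0.00152). ELOVL6, the elongase of saturated chains, was lower at 24 h with -0.27 ± 0.08 (adjusted p = 0.0322) and had -0.15 at 48 h (adjusted p = 0.257). The ELOVL6 call was lost without replicate 2 or 3 of DMSO or of entinostat at 24 h, with a value of -0.25 in each refit and adjusted p from 0.0911 to 0.0967. The map of arrays sets all members side by side.

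**Figure D3:**
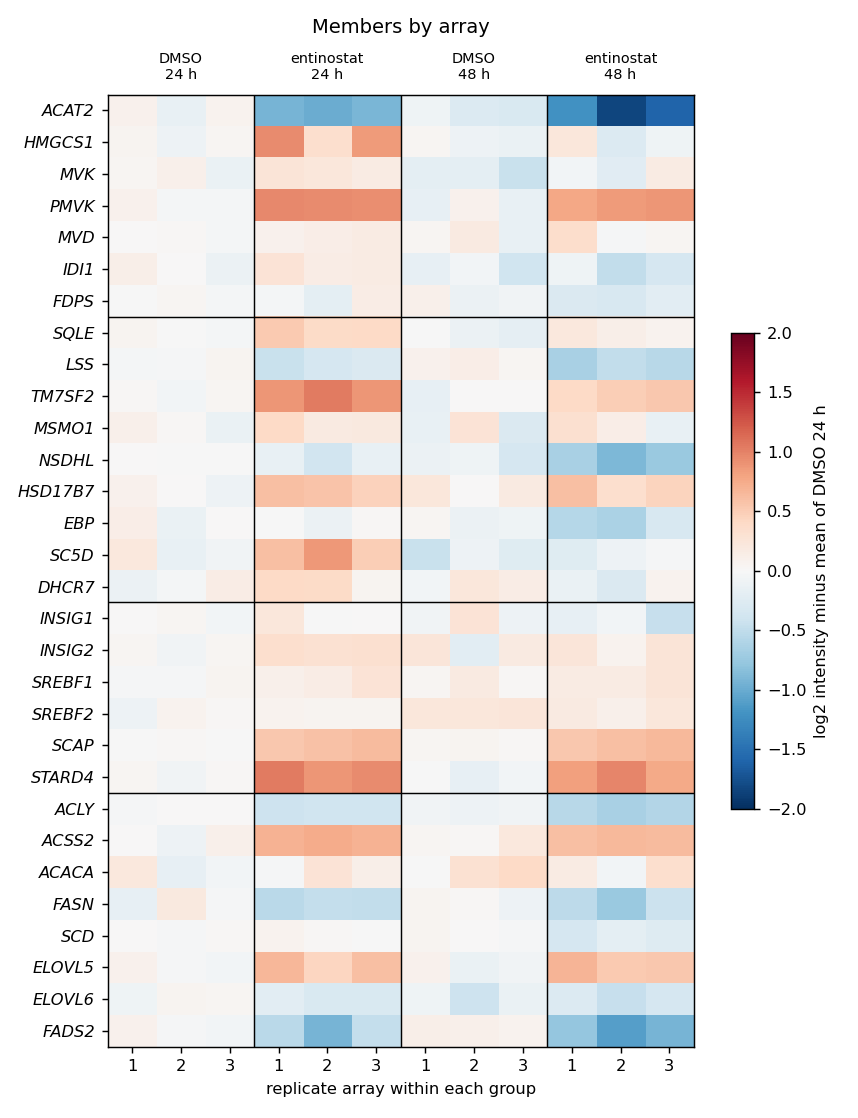
Log2 intensity of each measured member in each of the 12 arrays, minus the mean of its 3 DMSO arrays at 24 h, with red for higher and blue for lower. Members are in pathway order and horizontal lines part the 4 roles, and ACAT2, LSS, FASN and FADS2 are blue in all 6 treated arrays while PMVK, TM7SF2, SCAP, STARD4, ACSS2 and ELOVL5 are red in all 6.

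Whether the response differed between the times was tested as the interaction of treatment and time. No member passed (limma, threshold 0.05 after adjustment), where 0.794% of all genes were called higher and 1.13% lower at 48 h than at 24 h. At an unadjusted p under 0.05, 10 members had an estimate below 0 (a lower value of the change at 48 h) and 0 had one above, against 9.4% and 6.85% of all genes. The estimate was below 0 in 27 of the 30 members and in 51.7% of all genes, with a median of -0.20 for the members and -0.01 for all genes. Genes of like brightness were not counted apart for the interaction. HMGCS1 had -0.69 (adjusted p = 0.167), SC5D had -0.51 (adjusted p = 0.202) and TM7SF2 had -0.41 (adjusted p = 0.0558). Of the 66 probe sets of the members, 2 passed, both higher, one of ACACA and one of IDI1 that do not represent their gene, where 1.21% of all probe sets passed. The members called at a single time are therefore not shown to differ between the times.

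Within entinostat, where the 3 arrays of 48 h were compared with the 3 of 24 h, 10 of 30 members were lower at 48 h and 0 were higher, against 6.34% and 3.96% of all genes and 11.3% and 6.91% of the genes of like brightness. The arrays of the 2 times did not overlap in 16 members that were lower and 1 that was higher, against 16.3% and 12.3% of all genes. The treated arrays are those already compared with DMSO. The 10 were 3 enzymes of the mevalonate pathway, ACAT2 (-0.61), HMGCS1 (-0.75) and IDI1 (-0.50), 5 of the route from squalene, SQLE (-0.29), TM7SF2 (-0.46), NSDHL (-0.53), EBP (-0.47) and SC5D (-0.78), and the fatty acid enzymes ACLY (-0.19) and SCD (-0.29), with adjusted p from 0.00155 to 0.0268. Their 48 h arrays were all below their 24 h arrays, as SC5D at 993, 1186 and 917 and then 549, 610.2 and 640.1, and HMGCS1 at 1555, 1011 and 1447 and then 944, 667 and 756, show. None of the 6 regulators and carriers was called, but INSIG1 had -0.31 (adjusted p = 0.156, limma), a larger change than in some of the 10. Of these 6, 2 had all 48 h arrays below the 24 h arrays and 1 had all above. The calls thus do not set the regulators apart from the enzymes. In DMSO, no member passed between the times by limma, where 0.217% of all genes were called higher and 0.243% lower. The DMSO values were -0.23 for ACAT2, -0.06 for HMGCS1, -0.21 for IDI1, -0.10 for SQLE and -0.05 for TM7SF2. They were -0.18 for NSDHL, -0.06 for EBP, -0.26 for SC5D, -0.08 for ACLY and 0.01 for SCD. Passing in 1 arm only is not a difference between the arms, which is the interaction that no member passed. At an unadjusted p under 0.05, 1 member was higher and 3 were lower in DMSO, against 6.29% and 6.84% of all genes. The call of IDI1 was lost without entinostat 24 h replicate 1 (-0.46) as well as when the second or the last of the treated 48 h arrays was dropped (-0.40 and -0.49). The IDI1 call was also lost without probe sets whose name ends in _x_at or _s_at (-0.12, adjusted p = 0.593, limma). That of SQLE was lost without entinostat 24 h replicate 1 (-0.25) or 48 h replicate 3 (-0.26), and that of ACLY without whichever entinostat 24 h array or entinostat 48 h replicate 2 or 3 (-0.19 to -0.16). The call of NSDHL was also lost on its other probe set (-0.37, adjusted p = 0.0563), and that of SCD with the mean of its probe sets (-0.21, adjusted p = 0.0855). The plot of the shift in each arm shows most members below the diagonal.

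**Figure D4:**
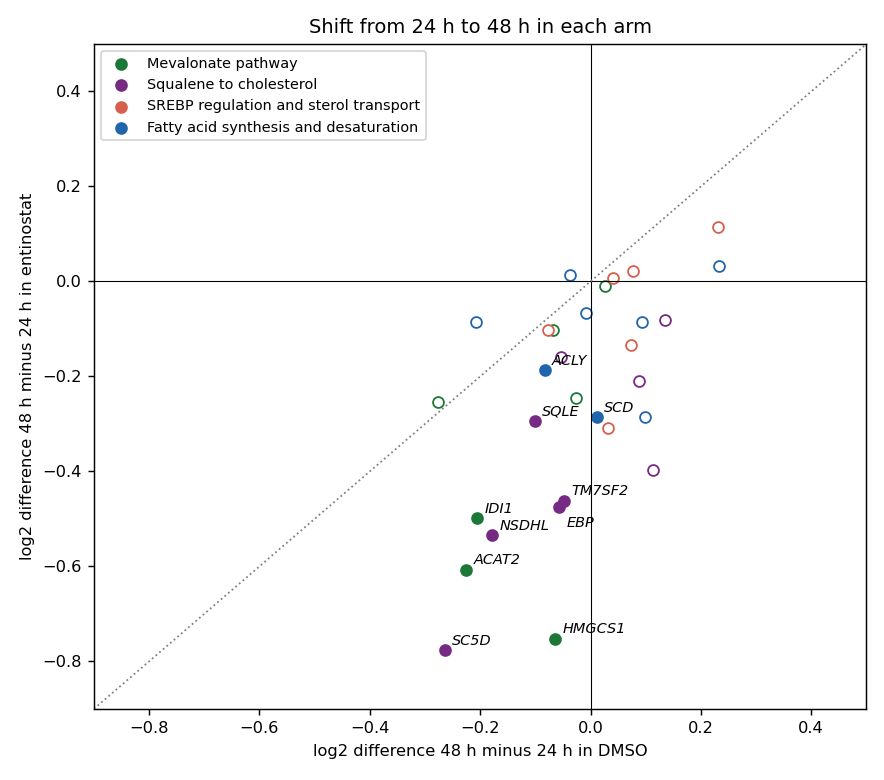
Log2 difference of 48 h minus 24 h in DMSO (horizontal axis) and in entinostat (vertical axis) for the 30 measured members, coloured by role, with filled points where the adjusted p in entinostat was under 0.05. The dotted diagonal marks an equal shift in both arms, 27 members lie below it, and SC5D and HMGCS1 lie lowest at -0.78 and -0.75.

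Each gene above was read from its probe set of highest mean intensity, and 19 members had others. No member had probe sets called in opposite directions at one time. The 66 probe sets gave 18 calls higher and 15 lower at 24 h, and 11 and 18 at 48 h, where 25.2% and 26.1% of all probe sets were called in either direction. Probe sets of one gene measured like changes for HMGCS1 (0.71 and 0.73 at 24 h) and for ACLY (-0.51, -0.72 and -0.69 at 48 h). They differed for others. FADS2 had -1.04 at 48 h on the probe set used and -0.23 on its dimmer one (adjusted p = 0.0414, limma). The dim probe set of FASN had -0.12 and -0.05, and the mean of both gave -0.31 and -0.30. The 3 dimmer probe sets of ELOVL5 ranged from -0.09 to 0.20 at 24 h, and the mean of all 4 gave 0.21 and 0.22. For LSS the mean of 3 probe sets gave -0.21 and -0.38, and the second probe set of SC5D had 0.33 at 24 h (adjusted p = 0.022). All these members remained past the threshold in their direction with the mean of their probe sets.

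Members that did not pass on the probe set used did so on another in some cases. DHCR7 had 0.43 at 24 h on its second probe set (adjusted p = 0.00598), which was almost as bright as the first. MVK had 0.37 on a dimmer one at 24 h (adjusted p = 0.0158, limma). ACACA was called lower at 24 h and higher at 48 h on its dimmer probe set. INSIG1 had -0.38 at 48 h on its dimmest (adjusted p = 0.0163), and NSDHL had -0.42 at 24 h on its second (adjusted p = 0.00936). IDI1 was the least uniform, with 0.19 and 0.29 at 24 h on 2 bright probe sets and -0.26 and -0.42 on 2 dimmer ones, of which only the dimmer 2 passed. Its fall from 24 h to 48 h in entinostat rests on the bright pair, since the dimmest had -0.12 (adjusted p = 0.593, limma) and the other dim one rose by 0.25. The bright pair are of the type described for HSD17B7, whose probes can also match near-identical sequences. So is the dim one that rose, but not the dimmest. The plot of probe sets shows these spreads.

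**Figure D5:**
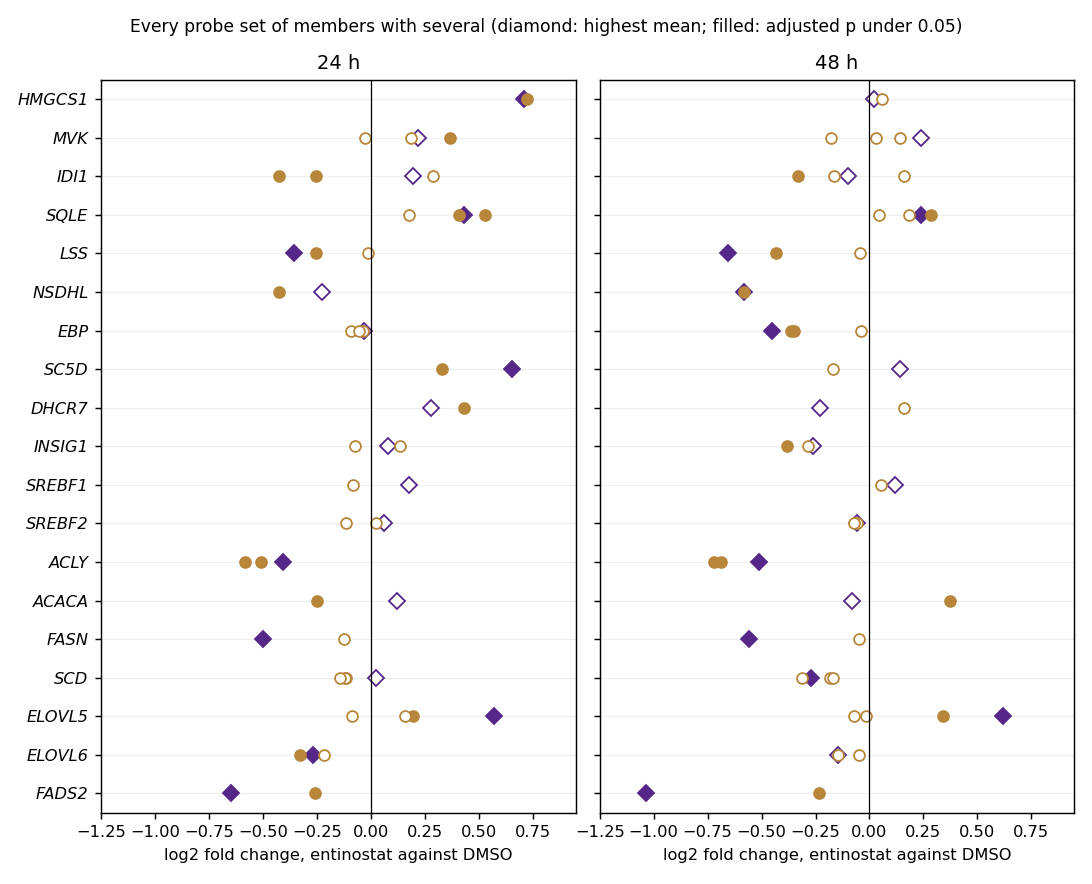
Log2 fold change of entinostat against DMSO for every probe set of the 19 members with several, at 24 h (left) and 48 h (right). Diamonds mark the probe set of highest mean intensity, circles the others, and filled symbols an adjusted p under 0.05, and the probe sets of FADS2 at 48 h reach from -1.04 to -0.23.

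For context, 98 further genes of lipid handling were listed and 84 were measured, of which 35 rose and 11 fell at 24 h, and 32 rose and 10 fell at 48 h. As shares, 41.7% were called up and 13.1% down at 24 h, and 38.1% and 11.9% at 48 h. Over all genes the shares were 18.2% and 15% at 24 h, and 17.3% and 16.6% at 48 h. Of these 84, 77.4% had a mean log2 intensity of at least 7. Among all genes of that brightness, 27.1% were called up and 26.5% down at 24 h, and 25.4% and 29.9% at 48 h. The groups below are small, and their counts were not tested against these shares. Among 17 genes of sterol uptake, storage and export, 9 rose and 1 fell at 24 h, and 8 rose and 0 fell at 48 h. ABCA1, the pump that exports cholesterol, rose by 2.34 ± 0.08 (adjusted p = 3.97e-09) and 2.62 ± 0.08 (adjusted p = 1.54e-09). NPC2 and LIPA, which free cholesterol in lysosomes, were 2.3-fold and 1.91-fold higher at 24 h and 2.83-fold and 2.09-fold higher at 48 h. Of 18 genes of fatty acid oxidation, 8 rose and 2 fell at 24 h, and 10 rose and 3 fell at 48 h. Among them CPT1A and CPT2, which carry fatty acids into mitochondria, rose by 1.07 and 1.03 at 24 h and by 0.58 and 0.86 at 48 h. Of 25 other genes of fatty acid synthesis, elongation and activation, 12 rose and 2 fell at 24 h, and 8 rose and 3 fell at 48 h. SCD5, a second desaturase of the kind of SCD, rose by 1.04 and 0.77, where SCD itself had 0.03 and -0.27. Of 15 genes of isoprenoid and sterol synthesis outside the main route, 3 rose and 4 fell at 24 h, and 3 rose and 3 fell at 48 h. Of 9 genes that process SREBPs, 3 rose and 2 fell at 24 h, and 3 rose and 1 fell at 48 h, among them MBTPS1, the first of the Golgi proteases, with 0.29 and 0.23, and MBTPS2, the second, with -0.20 (adjusted p = 0.0261, limma) and -0.09 (adjusted p = 0.36).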

How the data were processed

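RNA of 12 samples was hybridised to U133 Plus 2.0 arrays. The authors normalized the arrays with GCRMA (version not given in the sources used here) and name a log2 transformation, but the deposited intensity values are linear, with array medians from 80.7 to 81.9 and a lowest value of 36.7, so log2 was taken here. GCRMA removes background, yet a floor remains, so it is not settled that these are the GCRMA values themselves, and folds of dim genes are narrowed. The table held 54675 probe sets, of which 62 were controls and not used, and 2 of its values were missing. Probe sets with several symbols (1801) or none (11721) named no gene.

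A single limma model (version 3.58.1, R 4.3.3) with a mean for each group took all arrays, and p-values were adjusted over 54613 probe sets. A gene was read from its probe set of highest mean log2 value. The study calls its 3 replicates biological, but the labels do not say that cultures were separate, so p-values measure the spread between these samples. Deviations of same-numbered arrays correlated from -0.06 to 0.20 over 18 pairs, and 4 were over 0.1. Between DMSO and entinostat at 24 h, same-numbered arrays had 0.05, 0.20 and 0.17, and differently numbered ones -0.21 to 0.06. At 48 h the same-numbered had 0.10, 0.06 and -0.06, and the others -0.13 to 0.07. Whether numbers pair arrays is not settled by this. The main fit did not pair them, and a replicate block was an alternative. Named with every array are SREBF1, SREBF2, INSIG1, SCAP and members past the threshold with a log2 change of at least 0.5 at either time. Other pathway genes are named at 1 or more, and EBP, ACADVL, MBTPS1 and MBTPS2 were chosen after their values were seen. Members and lists were chosen with earlier results of these data known. The procedure was tested on simulated data. Alternatives were other choices of probe set, filters, normalizations, background corrections, priors and thresholds, separate fits, a replicate block and leaving out each array.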

Additional observations from a re-analysis of the deposited data

Results flagged for a closer look

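The interaction of treatment and time passed for 3 probe sets of the genes listed. For the dimmer of the 2 probe sets of ACACA it was 0.62 (adjusted p = 0.029, limma), with -0.25 at 24 h and 0.37 at 48 h, both past the threshold. The brighter ACACA probe set had -0.20 (adjusted p = 0.751). For the IDI1 probe set that is the brighter of its 2 dim ones it was 0.41 (adjusted p = 0.0356), with -0.26 at 24 h and 0.16 at 48 h, and the brightest IDI1 probe set had -0.29 (adjusted p = 0.476). For ACADVL, an enzyme of fatty acid oxidation, it was 0.54 (adjusted p = 0.00825), with 0.14 at 24 h and 0.68 at 48 h. Over all probe sets, 1.21% passed this test.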

How the results depend on the processing

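Over 24 alternatives, 12 of which left out 1 array each, 33 of 44 calls of single members against DMSO and between the times in entinostat held throughout, 11 were lost in at least 1 and 0 reversed. Besides the losses named in the report, subtracting 30 from every intensity ended the calls of FDPS at 48 h, INSIG2 and ELOVL6 at 24 h, and SQLE and ACLY between the times in entinostat, and quantile normalization that of FDPS. Without probe sets whose name ends in _x_at or _s_at, 20 members could be read, and members higher numbered 7 at 24 h and 4 at 48 h, and 4 were lower at 48 h than at 24 h in entinostat. At a threshold of 0.01, that last count was 5, and other pathway genes lower at 24 h numbered 7. With the probe set of strongest effect, 1 member was higher by the interaction (ACACA) and 1 at 48 h than at 24 h in entinostat. Members lower by the interaction numbered 2 with the mean of all probe sets (TM7SF2 and SC5D), and 1 each with a filter at a mean log2 of 7 (SCD), centred arrays (TM7SF2), a normexp correction (TM7SF2) and a trended prior (SCD). Leaving out each array gave 0 to 1 such member (HMGCS1 without entinostat 24 h replicate 2, TM7SF2 without DMSO 48 h replicate 1). It gave 7 to 11 other pathway genes lower at 24 h, 7 of them without DMSO 24 h replicate 3. The other counts of members stayed within 1.5 times. With a replicate block, 11 members were higher and 6 lower at 24 h, 8 and 9 at 48 h, 0 by the interaction, and 11 lower between the times in entinostat. Separate fits per time give no comparison between times. Dim genes near the background level limit what can be seen, and filtering them left 28 members.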
